A study of Mus musculus with 20 samples.

Results

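The 10 genes described here encode matrix metalloproteinases (*Mmp2*, *Mmp8*, *Mmp9*, *Mmp12* and *Mmp14*), their tissue inhibitors (*Timp1*, *Timp2* and *Timp3*) and the urokinase plasminogen activator (*Plau*) with its receptor (*Plaur*). They were chosen by their symbols, and all 10 were found among the 16810 genes of the deposited table, which holds genes that passed the study's own minimum of reads. RNA was sequenced from eGFP-high microglia sorted from the spinal cord of adult male CX3CR1+/eGFP mice on a C57BL/6 background, which carry eGFP in 1 copy of the *Cx3cr1* gene. Non-injured (NI) mice gave 3 libraries from a thoracic segment, and all injured mice had either a lateral hemisection (HS) or a full transection (FT) of the thoracic cord with no other treatment stated. There were 3 libraries for FT at each of 72 h, 1 week and 2 weeks after the lesion, and likewise for HS except at 1 week, which had 2, so that 20 libraries were compared. The *Cx3cr1* promoter is also active in blood monocytes and in other macrophages, so that the sorted gate can hold them. The study used more mice than libraries and the number of mice behind each library is not stated, so that the p-values measure the spread between these libraries.

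Matrix metalloproteinases are zinc-dependent enzymes that cut collagens, laminins, elastin and other proteins around cells, and most are made as inactive precursors. The tissue inhibitors bind the active site of these enzymes and block them, and TIMP-2 also takes part in the activation of the MMP-2 precursor by MMP-14 at the cell surface. Urokinase, held at the cell surface by its receptor uPAR, cuts plasminogen to plasmin, a protease that degrades fibrin and can activate some metalloproteinase precursors. In the injured spinal cord these systems are known for their part in the opening of the blood barrier, the movement of leukocytes and the remodelling of the scar.

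The genes lie on 8 chromosomes of the mouse GRCm38 (mm10) build, as annotated in GENCODE vM21. *Mmp8* (chr9:7558456-7568485) and *Mmp12* (chr9:7344381-7369499) share chromosome 9, and *Plau* (chr14:20836660-20843385) and *Mmp14* (chr14:54431612-54445364) share chromosome 14. *Plaur* spans chr7:24462484-24475968, *Mmp2* chr8:92827291-92853420, *Mmp9* chr2:164940780-164955850 and *Timp2* chr11:118301069-118355740. *Timp1* (chrX:20870166-20874735) lies inside *Syn1* and *Timp3* (chr10:86300372-86349506) inside *Syn3*, both genes of the synapsin family on the opposite strand. Exon positions of *Timp3* overlap those of *Syn3*, and exon positions of *Mmp12* overlap those of *Mmp1b*, also on the opposite strand. No annotated gene shares exon positions with *Timp1*. The strand setting of the read counting is not stated. Reads at the exon positions shared by *Timp3* and *Syn3*, or by *Mmp12* and *Mmp1b*, therefore cannot be told apart. *Syn1* lay between 0.205 and 1.50 CPM and *Syn3* between 1.62 and 5.56 CPM over the 20 libraries. *Mmp1b* had group means of 0.118 to 0.861 CPM. CPM (counts per mega-read, or M) is taken here as the authors' read count divided by their scaled library size.

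Start-site sequences are shown for 3 genes on which the results turn, *Mmp12*, *Plaur* and *Timp1*, so that the letters next to each start can be read beside its values. Each window runs from 250 bases before an annotated start to 50 bases from it, and comes from RefSeq on GRCm38.p6. RefSeq windows were at hand for 7 of the 10 genes (8 windows, of which 2 belong to *Mmp12*), and *Mmp2*, *Mmp9* and *Plau* were not matched. Capitals mark the letters TGAGTCA or their reverse complement TGACTCA, the core element bound by AP-1 factors, and GAGGAAGT or its reverse complement ACTTCCTC, an element bound by the myeloid factor PU.1. Both strands were searched, the 2 elements do not overlap each other here, and both were chosen after the windows had been seen. All windows below lie on the plus strand.
*Plaur* chr7:24462233-24462532: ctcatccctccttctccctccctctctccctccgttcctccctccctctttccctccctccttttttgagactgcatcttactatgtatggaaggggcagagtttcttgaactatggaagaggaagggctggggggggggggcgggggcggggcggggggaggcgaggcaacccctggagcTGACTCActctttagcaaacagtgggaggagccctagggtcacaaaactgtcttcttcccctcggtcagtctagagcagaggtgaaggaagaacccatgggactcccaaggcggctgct
*Mmp12* upstream start chr9:7344147-7344446: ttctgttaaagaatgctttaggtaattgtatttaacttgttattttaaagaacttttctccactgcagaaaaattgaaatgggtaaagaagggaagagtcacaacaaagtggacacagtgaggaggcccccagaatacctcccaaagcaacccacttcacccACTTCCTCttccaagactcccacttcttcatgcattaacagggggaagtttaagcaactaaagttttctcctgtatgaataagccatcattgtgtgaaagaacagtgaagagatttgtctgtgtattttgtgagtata
*Mmp12* downstream start chr9:7347124-7347423: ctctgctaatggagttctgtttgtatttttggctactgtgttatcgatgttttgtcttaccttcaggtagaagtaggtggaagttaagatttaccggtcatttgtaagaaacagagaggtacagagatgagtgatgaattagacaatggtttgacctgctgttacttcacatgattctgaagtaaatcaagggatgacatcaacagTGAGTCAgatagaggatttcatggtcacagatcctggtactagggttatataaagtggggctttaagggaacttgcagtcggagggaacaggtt
*Timp1* chrX:20869916-20870215: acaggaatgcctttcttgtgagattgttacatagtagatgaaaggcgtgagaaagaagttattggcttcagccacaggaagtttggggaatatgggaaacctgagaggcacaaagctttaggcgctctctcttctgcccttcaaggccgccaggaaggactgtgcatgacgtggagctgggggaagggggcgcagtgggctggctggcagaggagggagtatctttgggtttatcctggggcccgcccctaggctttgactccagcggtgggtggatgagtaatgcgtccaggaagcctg

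The AP-1 letters began at -69 from the start of *Plaur* and at -44 from the downstream start of *Mmp12*, and 5.2% of 32851 mouse windows of the same length hold them (1709 windows). The PU.1 letters began at -88 from the upstream start of *Mmp12* and at -221 from the start of *Mmp8*, and 3.2% of all windows hold them (1052 windows). Neither was found in the windows of *Timp1*, *Timp2*, *Timp3* or *Mmp14*, which says only that these letters are not there.

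The libraries held 3.87 to 34.1 M reads on the genes of the table, with a median of 10.1 M, so that 1 read was worth 0.0330 to 0.292 CPM. The 10 microglial markers examined, *P2ry12* and *Tmem119* among them, were above 0 in every library and together made up 18503 to 38940 CPM. Markers of other cells were present at lower levels in every group. Their summed CPM was 162 to 686 for 8 astrocyte markers, 477 to 2587 for 7 oligodendrocyte markers and 47.2 to 459 for 9 monocyte markers. It was 395 to 1224 for 9 markers of border macrophages, those at the edges of the nervous system, and 9.67 to 51.7 for 5 neuronal markers. FT 1 week replicate 1 stood apart from the other libraries of its group, and values that rest on it are named. In bulk RNA from sorted cells, fewer cells of a type and less RNA per cell cannot be told apart. Genes were called differentially expressed (DE) at a Benjamini-Hochberg adjusted p-value under 0.05 over all 16810 genes, with limma, and a change of at least 2-fold, on log2 values with 0.5 CPM added.

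**Figure D1:**
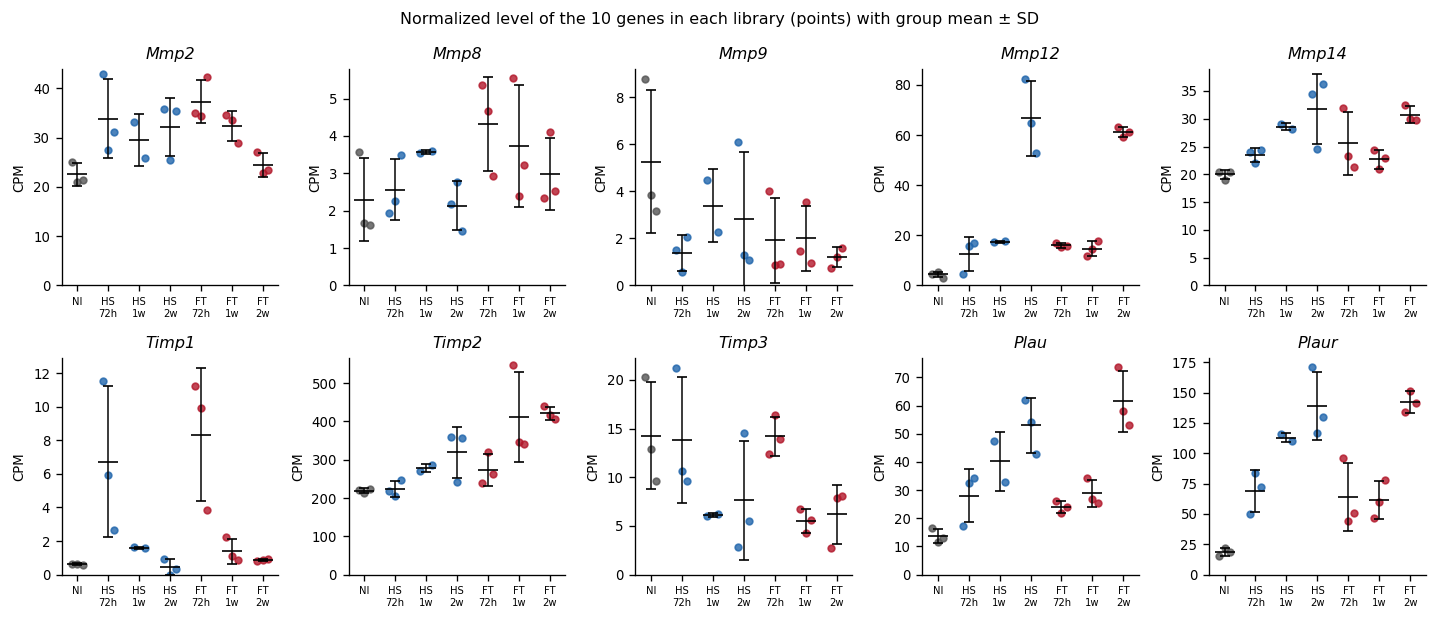
CPM (y axis, from 0) of each of the 10 genes in the 20 libraries, by group on the x axis (gray, NI; blue, HS; red, FT). Points are libraries, and bars show the group mean ± SD. *Mmp12* reached 52.7 to 82.5 CPM in the 6 libraries at 2 weeks, and *Timp1* was highest in the libraries at 72 h.

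Compared with NI, microglia had more transcripts of *Plaur* and *Mmp12* at every time after both injuries, and more of *Timp1* at 72 h. *Plau* was DE higher from 1 week, and at 72 h its rise was under the 2-fold limit. *Plaur* mean levels were 3.28 to 7.59 times that of NI, and those of *Mmp12* were 2.83 to 15.2 times. *Timp2*, the inhibitor with the highest level, was DE in no comparison with NI, and neither were *Mmp2*, *Mmp8*, *Mmp14* and *Timp3*. *Mmp9* was DE lower at 72 h after HS, from low counts.

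At 72 h after HS, 4 of the 10 genes were DE (3 higher, 1 lower), where 13.4% of all genes tested were DE and 9.08% were DE higher. In the FT group at 72 h 3 were DE, all higher, beside 12.2% of all genes DE and 8.14% DE higher. At 1 week 3 of the 10 were DE higher after HS (2.18% of all genes DE, 1.7% higher) and 3 after FT (4.05% DE, 2.86% higher). At 2 weeks 3 were again DE higher after HS (3.23% of all genes DE, 2.43% higher) and 3 after FT (4.88% DE, 3.53% higher). The libraries of the injured group and those of NI did not overlap for 6, 8 and 6 of the 10 genes after HS at 72 h, 1 and 2 weeks, beside 49%, 37.3% and 24.8% of all genes. After FT they did not overlap for 7, 8 and 8 of the 10, beside 44.9%, 21.5% and 30.7% of all genes. The median log2 fold change of the 10 genes was 0.39, 0.56 and 0.51 after HS at 72 h, 1 and 2 weeks, where the median over all genes was -0.11, 0.02 and -0.01. After FT it was 0.75, 0.64 and 0.48, where the median over all genes was -0.09, -0.03 and -0.02. These 6 comparisons share the same 3 NI libraries.

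**Figure D2:**
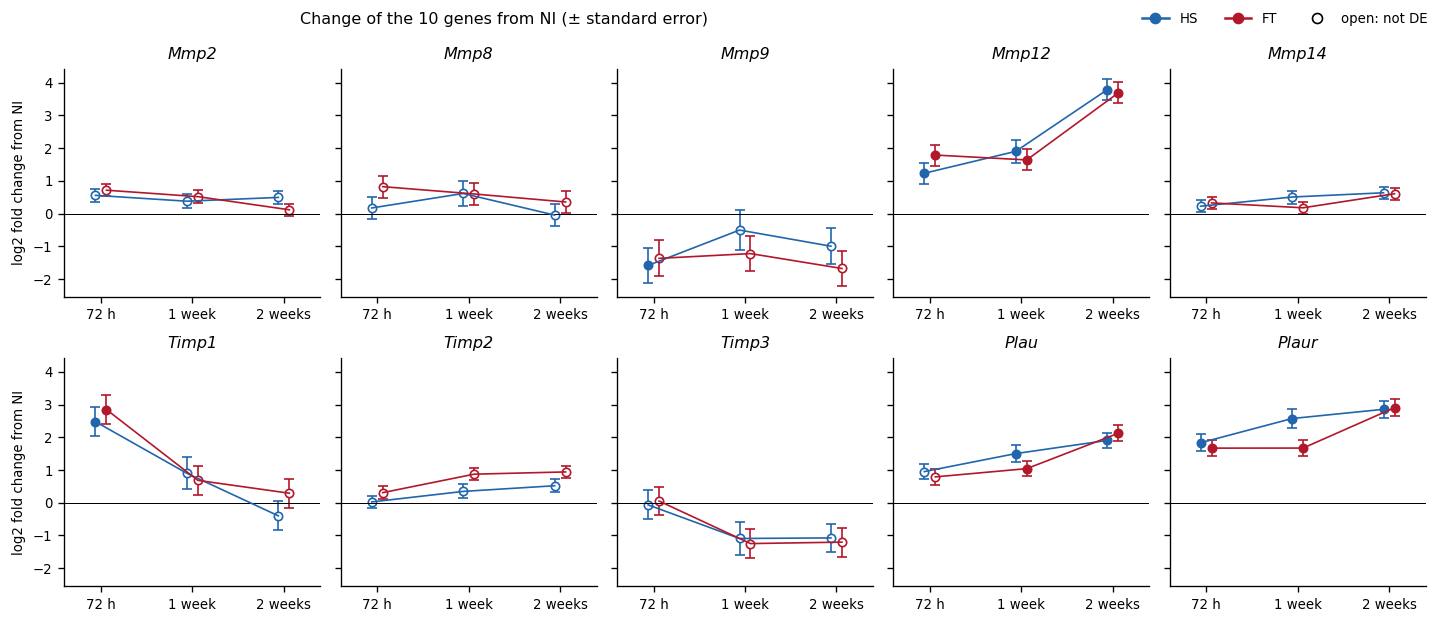
Log2 fold change from NI (y axis, ± standard error) of each of the 10 genes at 72 h, 1 and 2 weeks (x axis) after HS (blue) and FT (red). Filled points are DE and open points are not. *Plaur* and *Mmp12* are filled at each time, and *Timp1* only at 72 h.

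*Plaur* encodes uPAR, the receptor that holds urokinase at the cell surface. It had 15.3, 22.0 and 19.0 CPM in the 3 NI libraries. After HS it had 50.2, 84.0 and 72.6 CPM at 72 h, 116 and 110 CPM at 1 week and 171, 117 and 130 CPM at 2 weeks. After FT it had 96.0, 44.1 and 51.2 CPM at 72 h, 46.5, 59.9 and 78.1 CPM at 1 week and 134, 152 and 141 CPM at 2 weeks. All 17 injured libraries lay above all NI libraries, and the 2-week libraries of both injuries lay above all libraries at 72 h. Its log2 fold change from NI was 1.83, 2.57 and 2.86 after HS (standard errors 0.26, 0.29 and 0.26, adjusted p 1.75e-05, 6.75e-06 and 1.51e-07) at 72 h, 1 and 2 weeks. After FT it was 1.67, 1.67 and 2.90 (standard error 0.26 each, adjusted p 5.91e-05, 0.000182 and 8.1e-08). It remained DE in all 6 comparisons under every alternative.

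*Plau* encodes urokinase itself. It had 16.5, 11.7 and 13.05 CPM in NI. After HS it had 17.1, 32.6 and 34.4 CPM at 72 h, 47.5 and 32.8 CPM at 1 week and 61.9, 54.3 and 42.8 CPM at 2 weeks. After FT it had 26.1, 21.9 and 24.0 CPM at 72 h, 34.2, 26.9 and 25.4 CPM at 1 week and 73.8, 57.9 and 53.1 CPM at 2 weeks. The injured libraries lay above all NI libraries, although HS 72 h replicate 1 did so by a small margin. The log2 fold change was 1.50 ± 0.27 (standard error, adjusted p = 0.00174) at 1 week and 1.91 ± 0.24 (adjusted p = 1.6e-05) at 2 weeks after HS. After FT it was 1.04 ± 0.24 (adjusted p = 0.00807) at 1 week and 2.12 ± 0.24 (adjusted p = 2.55e-06) at 2 weeks. At 72 h it was 0.95 after HS (adjusted p = 0.0051) and 0.79 after FT (adjusted p = 0.0194), under the 2-fold limit. The change at 72 h after HS was DE by the quasi-likelihood test (1.00, adjusted p = 0.00395) and the likelihood ratio test of edgeR (1.00, adjusted p = 0.00108). It was also DE by DESeq2 (1.02, adjusted p = 0.000577). The call at 1 week after HS was lost without HS 1 week replicate 1 (1.24, adjusted p = 0.0918), and the call at 1 week after FT without NI replicate 2 (0.94, adjusted p = 0.0597) or FT 1 week replicate 1 (0.92, adjusted p = 0.0222).

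*Mmp12* encodes macrophage elastase, a metalloproteinase that cuts elastin. It had 4.71, 5.28 and 3.17 CPM in NI. After HS it had 4.56, 15.8 and 16.8 CPM at 72 h, 17.2 and 17.7 CPM at 1 week and 82.5, 65.0 and 52.7 CPM at 2 weeks. After FT it had 17.1, 15.2 and 15.9 CPM at 72 h, 11.6, 14.6 and 17.7 CPM at 1 week and 63.1, 59.3 and 61.3 CPM at 2 weeks. HS 72 h replicate 1 lay within the range of NI, and the other 16 injured libraries lay above it. The 6 libraries at 2 weeks lay above all others, since the lowest of them had 52.7 CPM and the highest at any other time 17.7 CPM.

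The log2 fold change of *Mmp12* from NI was 1.23 ± 0.32 (standard error, adjusted p = 0.00688) at 72 h after HS, 1.90 ± 0.36 (adjusted p = 0.00332) at 1 week and 3.79 ± 0.32 (adjusted p = 6.81e-08) at 2 weeks. After FT it was 1.79 (adjusted p = 0.000327), 1.64 (adjusted p = 0.00217) and 3.69 (adjusted p = 7.4e-08), each with a standard error of 0.32. Among all 16810 genes it ranked 12 from the highest log2 fold change at 2 weeks after HS and 17 at 2 weeks after FT. The call at 72 h after HS was lost without HS 72 h replicate 2 (0.96, adjusted p = 0.053) or replicate 3 (0.92, adjusted p = 0.0491), and rose to 1.81 without replicate 1. The call at 1 week after HS was lost when either of its 2 libraries was left out, with nearly the same change (1.92, adjusted p = 0.0525, and 1.88, adjusted p = 0.0555). The 1 library left is then assumed to vary like those of the other groups.

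*Mmp14* encodes a membrane-anchored metalloproteinase that activates the MMP-2 precursor. It had 20.5, 19.0 and 20.4 CPM in NI and 20.9 to 36.2 CPM in the injured libraries, all of which lay above the NI libraries. Its log2 fold change was 0.64 ± 0.18 (adjusted p = 0.0394) at 2 weeks after HS and 0.61 ± 0.18 (adjusted p = 0.0361) at 2 weeks after FT, under the 2-fold limit, and 0.18 to 0.51 at the other times. *Mmp2* encodes gelatinase A. It had 25.1, 21.0 and 21.5 CPM in NI and 34.5 to 42.4 CPM at 72 h after FT, where the log2 fold change was 0.71 ± 0.19 (adjusted p = 0.00902). At 72 h after HS its libraries had 42.8, 27.5 and 31.2 CPM (0.56 ± 0.19, adjusted p = 0.0349). At 2 weeks after FT it had 27.1, 22.7 and 23.4 CPM, which overlapped NI (0.12 ± 0.19, adjusted p = 0.812).

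*Mmp9*, gelatinase B, and *Mmp8*, the neutrophil collagenase, were low in every group. *Mmp9* had 8.76, 3.86 and 3.17 CPM in NI and 1.52, 0.565 and 2.05 CPM at 72 h after HS, the latter from 46, 6 and 10 reads. Its log2 fold change there was -1.58 ± 0.55 (adjusted p = 0.0356). The call was lost without NI replicate 1 (-1.18, adjusted p = 0.155), NI replicate 2, HS 72 h replicate 1 or HS 72 h replicate 2 (-1.22, adjusted p = 0.158), and with quantile scaling (-1.37, adjusted p = 0.069). In the other 5 injured groups *Mmp9* had means of 1.19 to 3.39 CPM and log2 fold changes of -0.50 to -1.68 that were not DE in the main fit. At 2 weeks after FT it was DE by the quasi-likelihood (adjusted p = 0.0412) and likelihood ratio (adjusted p = 0.0211) tests of edgeR. There it was also DE with only the 2 groups fitted (adjusted p = 0.0127). With columns scaled to 1 total it was DE at 72 h (adjusted p = 0.017) and 2 weeks (adjusted p = 0.0186) after FT. *Mmp8* had 3.58, 1.67 and 1.63 CPM in NI and 1.45 to 5.56 CPM after injury, with overlapping groups at each time.

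NI replicate 1, the highest NI library for both *Mmp9* and *Mmp8*, also had the most of the neutrophil transcripts *S100a8* (35.3 CPM, against 13.1 and 8.44 CPM in the other NI libraries) and *Ngp* (21.9, 13.5 and 7.10 CPM). It had the least of *Csf3r* (653 CPM, against 771 and 760 CPM) and *Cxcr2* (12.5, 15.4 and 19.2 CPM), and the lowest sum of the neutrophil markers in NI (769 CPM). In HS 1 week, HS 2 weeks and FT 72 h, replicate 1 had the most *Mmp9* and also the most *S100a8* and *Ngp* of its group. In HS 72 h, FT 1 week and FT 2 weeks the library with the most *Mmp9* had the most of neither. *S100a8* was highest in FT 2 weeks replicate 2 (93.5 CPM), where *Mmp9* had 1.22 CPM and *Mmp8* 4.09 CPM. The 10 neutrophil markers in the table were summed to 769 to 835 CPM in NI, 465 to 658 CPM at 72 h after HS and 510 to 629 CPM at 72 h after FT, and to 656 to 1089 CPM in the later groups. *Csf3r* alone, which microglia also express, was 438 to 1044 CPM of these sums, and *Mpo* and *Camp* were at 0 in some libraries. Of these markers 1 was DE at 72 h after each injury, *Camp* lower after HS and *Cxcr2* lower after FT. Their part in the *Mmp9* values was not tested.

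*Timp1*, an inhibitor known to rise in many injured tissues, had 0.655, 0.643 and 0.576 CPM in NI, from 5 to 11 reads. After HS it had 11.6, 5.94 and 2.67 CPM at 72 h, 1.63 and 1.56 CPM at 1 week and 0.936, 0 and 0.362 CPM at 2 weeks. After FT it had 11.2, 9.93 and 3.83 CPM at 72 h, 2.22, 1.08 and 0.867 CPM at 1 week and 0.842, 0.871 and 0.916 CPM at 2 weeks. The 6 libraries at 72 h lay above all others, and they differed among themselves by a factor of over 4. The library with no read, HS 2 weeks replicate 2, allows up to 0.641 CPM (3 reads, counting error only). The log2 fold change at 72 h was 2.48 ± 0.44 (adjusted p = 0.000249) after HS and 2.85 ± 0.44 (adjusted p = 6.44e-05) after FT, and over the alternatives it was 2.01 to 3.51 and 2.41 to 3.72. At 1 and 2 weeks it was 0.90 and -0.40 after HS and 0.68 and 0.29 after FT, none of them DE.

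*Timp2*, which encodes the inhibitor that joins MMP-14 at the cell surface, had 221, 212 and 223 CPM in NI. After HS it had 217, 207 and 247 CPM at 72 h, 272 and 286 CPM at 1 week and 360, 242 and 356 CPM at 2 weeks. After FT it had 239, 319 and 263 CPM at 72 h, 548, 347 and 341 CPM at 1 week and 440, 417 and 407 CPM at 2 weeks. The groups overlapped NI only at 72 h after HS. The log2 fold change was 0.87 ± 0.19 (adjusted p = 0.00606) at 1 week and 0.94 ± 0.19 (adjusted p = 0.00256) at 2 weeks after FT, under the 2-fold limit, and 0.35 (adjusted p = 0.571) and 0.52 (adjusted p = 0.153) after HS. The highest value, 548 CPM, was that of FT 1 week replicate 1.

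*Timp3*, an inhibitor that binds to the extracellular matrix, had 20.3, 12.9 and 9.59 CPM in NI. After HS it had 21.3, 10.6 and 9.64 CPM at 72 h, 5.99 and 6.25 CPM at 1 week and 2.81, 14.5 and 5.56 CPM at 2 weeks. After FT it had 12.4, 16.4 and 14.0 CPM at 72 h, 6.74, 4.26 and 5.60 CPM at 1 week and 2.71, 7.84 and 8.09 CPM at 2 weeks. All libraries at 1 week, and those at 2 weeks after FT, lay below all NI libraries. The log2 fold change was -1.09 and -1.07 after HS at 1 and 2 weeks (adjusted p 0.341 and 0.206) and -1.25 and -1.20 after FT (adjusted p 0.102 and 0.109), and was -0.06 and 0.05 at 72 h. None of these was DE in the main fit. The change at 1 week after FT was DE by the likelihood ratio test of edgeR (-1.37, adjusted p = 0.0332) and by DESeq2 (-1.37, adjusted p = 0.0224). With only the 2 groups fitted the changes at 1 week were DE after HS (adjusted p = 0.0256) and after FT (adjusted p = 0.043). Without HS 2 weeks replicate 2 the change at 2 weeks after HS was DE (-1.66, adjusted p = 0.0229).

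Astrocyte markers were examined beside *Timp3*. The 8 markers summed to 390 to 667 CPM in NI, 292 to 568 CPM at 72 h after HS and 469 to 686 CPM at 72 h after FT. At 1 week the sums were 283 to 303 CPM after HS and 294 to 445 CPM after FT, and at 2 weeks 162 to 305 CPM and 185 to 245 CPM. At 2 weeks 5 of the 8 were DE lower after both injuries (*Aqp4*, *Slc1a2*, *Gja1*, *Aldoc* and *Gjb6*), and none was at 0 in any library. Within groups, NI replicate 1 and HS 72 h replicate 1 had both the most *Timp3* and the highest astrocyte sum. The same held for HS 2 weeks replicate 2 and FT 72 h replicate 2. At 1 week after HS and at 2 weeks after FT the library with the most *Timp3* did not have the highest sum. FT 1 week replicate 1 had the most *Timp3* of its group with the lowest sum. At 72 h, where the log2 fold change of *Timp3* was near 0, 3 of the 8 were already DE lower after HS (*Slc1a2*, *Gja1* and *Gjb6*) and 2 after FT (*Slc1a2* and *Gjb6*). At 1 week these 3 were DE lower after HS, and the same with *Aldoc* after FT. *Gfap* was DE higher at 72 h after both injuries and at 1 week after FT, and *Aldh1l1* at 72 h after FT. The part of these markers in the *Timp3* values was not tested.

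Fibroblast and pericyte markers stood beside *Timp1*. The 8 markers summed to 24.1 to 47.4 CPM in NI, 35.3 to 123 CPM at 72 h after HS and 25.6 to 58.4 CPM at 72 h after FT. Of these *Col3a1* was DE higher at 72 h after both injuries, and *Lum* was at 0 in some libraries. HS 72 h replicate 1 had both the most *Timp1* and the highest sum (123 CPM), and without it *Timp1* was still DE (2.01, adjusted p = 0.00319). HS 2 weeks replicate 1, with a sum of 97.0 CPM, had 0.936 CPM of *Timp1*, which was the most of its group. NI replicate 1 and FT 1 week replicate 1 also had the most *Timp1* and the highest sum of their groups. In HS 1 week, FT 72 h and FT 2 weeks the library with the most *Timp1* did not have the highest sum. Markers of monocytes were also higher at 72 h, with 2 of 9 DE higher after HS (*Ccr2* and *Chi3l3*) and 5 of 9 after FT (*Ccr2*, *Ly6c2*, *Plac8*, *Chi3l3* and *F10*). Their sums were 76.7 to 79.6 CPM in NI, 127 to 197 CPM at 72 h after HS and 142 to 459 CPM at 72 h after FT. FT 72 h replicate 1, with the sum of 459 CPM, had the most *Plaur*, *Plau*, *Mmp8*, *Mmp9*, *Mmp12*, *Mmp14* and *Timp1* of its group. HS 72 h replicate 1 had the lowest sum of its group (127 CPM) but the most *Timp1* (11.6 CPM). It had the least *Plaur*, *Plau*, *Mmp8* and *Mmp12* of its group, while its *Mmp9* and *Mmp14* lay between those of the other libraries. At 1 week the sums were 108 to 133 CPM after HS, where *Itga4* was DE higher, and 72.3 to 98.7 CPM after FT. At 2 weeks the sums were 47.2 to 80.1 CPM, while *Mmp12*, *Plau* and *Plaur* were at their highest. At 2 weeks 5 of the 9 border-macrophage markers were DE lower after both injuries (*Mrc1*, *Cd163*, *Lyve1*, *Pf4* and *Cbr2*). *Ms4a7* and *Siglec1* were DE higher after both, and *Folr2* after FT. The 9 markers summed to 395 to 434 CPM after HS and 462 to 611 CPM after FT, beside 663 to 703 CPM in NI. At 72 h they summed to 842 to 1019 CPM after HS and 806 to 1224 CPM after FT. The part of the markers of this paragraph in the values at 72 h, 1 and 2 weeks was not tested.

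**Figure D3:**
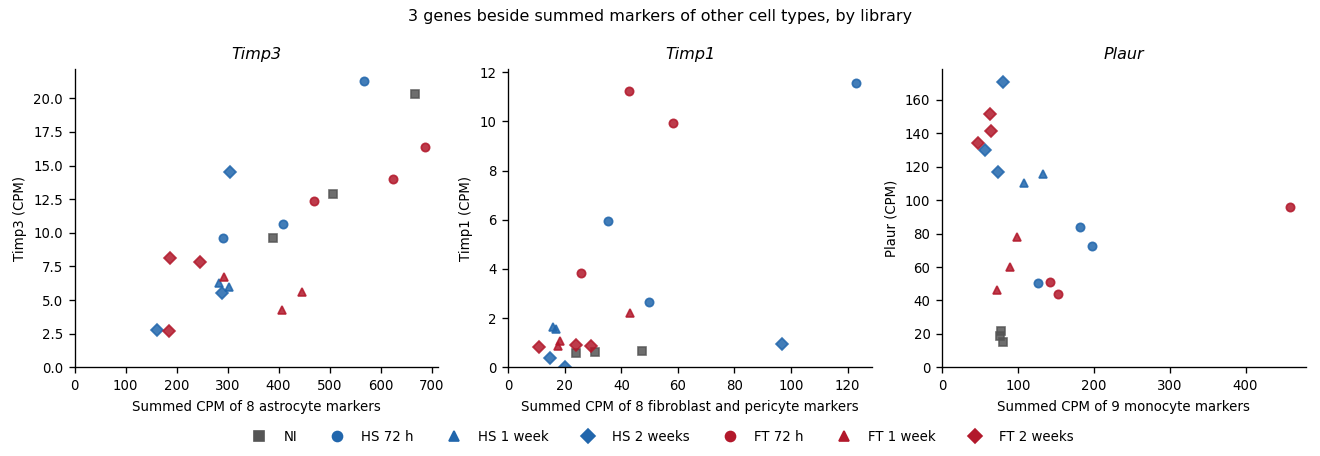
Left, *Timp3* against the summed CPM of 8 astrocyte markers; middle, *Timp1* against that of 8 fibroblast and pericyte markers; right, *Plaur* against that of 9 monocyte markers. Each point is 1 library (all axes in CPM, from 0), with squares for NI, circles for 72 h, triangles for 1 week and diamonds for 2 weeks. The 6 diamonds of *Plaur* lie at 117 to 171 CPM with monocyte sums of 47.2 to 80.1 CPM.

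Levels were compared between the genes per kb of annotated exon. In NI *Timp2* had 56.2 ± 1.54 CPM per kb (SD, n = 3), 66.4% of the sum over the 10 genes, and it was the highest of the 10 in all 7 groups. *Plaur* was the second in NI with 7.17 ± 1.29 CPM per kb, followed by *Mmp2* with 6.68 ± 0.664 and *Plau* with 5.81 ± 1.05, and these 3 did not differ beyond their spread. *Mmp14* (3.35 ± 0.137) and *Timp3* (1.75 ± 0.675) came next. *Mmp9* (1.49 ± 0.861), *Mmp8* (0.946 ± 0.458), *Timp1* (0.704 ± 0.0485) and *Mmp12* (0.606 ± 0.151 CPM per kb) were the lowest, and the intervals of mean ± SD of neighbours among them overlapped. *Mmp12* thus ranked 10 of 10 in NI, but 8 with lengths from the longest transcript, where *Timp1* was the last. At 2 weeks it ranked 5 (4 by the longest transcript) after HS with 9.22 ± 2.07 CPM per kb and 4 after FT with 8.46 ± 0.262 CPM per kb. *Plaur* was the second in every group and reached 54.4 ± 3.36 CPM per kb at 2 weeks after FT, where *Timp2* had 108 ± 4.36 CPM per kb. *Timp1* ranked 5 at 72 h after both injuries, with 7.57 ± 5.07 and 9.38 ± 4.45 CPM per kb, and 10 at 2 weeks after HS (0.487 ± 0.531 CPM per kb). The share of *Timp2* in the sum of the 10 genes was 44.4% to 51.7% in the injured groups other than FT 1 week (65.6%).

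**Figure D4:**
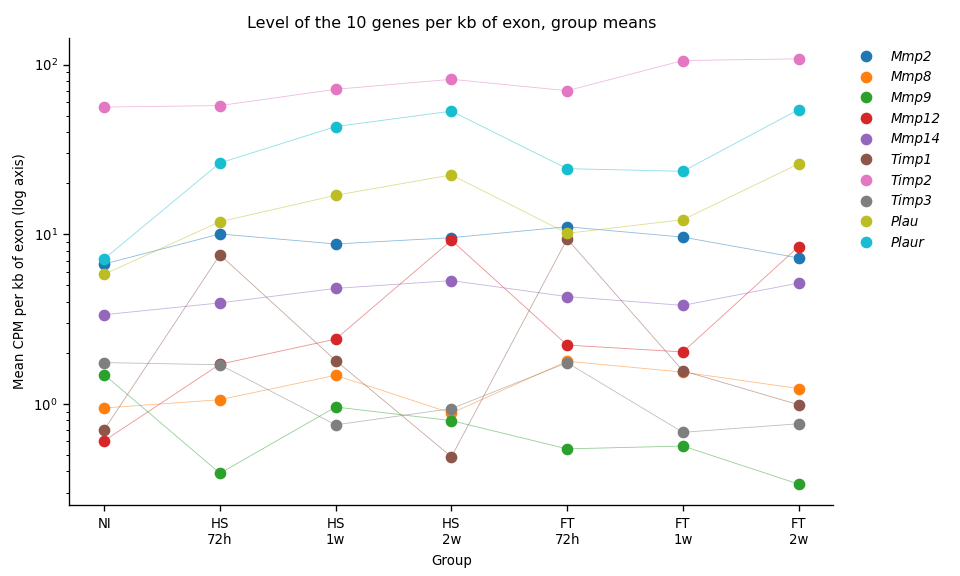
Mean CPM per kb of exon (y axis, log scale) of each of the 10 genes in the 7 groups (x axis); lines join the points of a gene only as a guide. *Timp2* is at the top in every group (56.2 CPM per kb in NI, 108 at 2 weeks after FT), and *Mmp12* goes from 0.606 in NI to 9.22 at 2 weeks after HS.

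FT was compared with HS at each time to ask whether the severity of the lesion changed these genes. None of the 10 was DE at any of the 3 times, and no gene of the 16810 was (0% in each comparison, limma). In limma 505, 724 and 438 genes had an unadjusted p under 0.05. Each count was below the share of 0.05 of all genes that would have such a p if no gene differed. The likelihood ratio test of edgeR and DESeq2 on whole reads called no gene at 72 h, 8 and 7 genes at 1 week and 1 gene each at 2 weeks, none of them among the 10. For *Mmp12* the log2 difference of FT from HS was 0.56 (95% interval -0.11 to 1.23) at 72 h, -0.26 (-1.01 to 0.49) at 1 week and -0.10 (-0.77 to 0.57) at 2 weeks. For *Timp1* at 72 h it was 0.37 (-0.54 to 1.28). For *Plaur* it was -0.16 (-0.69 to 0.37) at 72 h, -0.90 (-1.50 to -0.31) at 1 week and 0.05 (-0.48 to 0.58) at 2 weeks. At 1 week the 3 FT libraries (46.5 to 78.1 CPM) lay below both HS libraries (110 and 116 CPM), with an unadjusted p of 0.00468 and an adjusted p of 0.999. The summed monocyte markers were also lower there after FT (72.3, 89.1 and 98.7 CPM) than after HS (133 and 108 CPM), and their part in it was not tested. *Timp2* was higher after FT than after HS in all libraries at 1 week (0.53, 0.08 to 0.98, adjusted p = 0.999) and at 2 weeks (0.42, 0.02 to 0.82, adjusted p = 0.9998). FT 1 week replicate 1 had the highest *Timp2* (548 CPM) and the lowest *Plaur* (46.5 CPM) of its group. The libraries of FT and HS did not overlap for 0, 3 and 1 of the 10 genes at the 3 times, beside 7.54%, 15% and 8.15% of all genes. The intervals given above leave room for differences of 2-fold or more for *Mmp12*, *Timp1* and *Plaur* at some times.

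Between the times after injury, *Timp1* fell and *Mmp12* and *Plaur* rose after both injuries, and *Plau* rose after FT. From 72 h to 1 week *Timp1* was the only one of the 10 that was DE, with a log2 change of -1.58 ± 0.49 (adjusted p = 0.0458) after HS, where 6.03% of all genes were DE, and -2.16 ± 0.44 (adjusted p = 0.00381) after FT, where 3.44% were. The first of these calls was lost without either HS 72 h replicate 1 or 2, without either library at 1 week (adjusted p 0.101 to 0.22), with 0.1 CPM added (adjusted p = 0.119), or with columns scaled to 1 total (-1.32, adjusted p = 0.0799). From 72 h to 2 weeks 3 of the 10 were DE after HS (4.74% of all genes) and 4 after FT (3.81%). *Timp1* fell by 2.88 and 2.56 on the log2 scale (adjusted p 0.000137 and 0.000673), and *Mmp12* rose by 2.55 and 1.90 (adjusted p 1.38e-05 and 0.000586). *Plaur* rose by 1.02 (adjusted p = 0.013) and 1.24 (adjusted p = 0.0041). The call of *Plaur* after HS was lost without HS 72 h replicate 1 (0.81, adjusted p = 0.104) or HS 2 weeks replicate 1 (0.87, adjusted p = 0.0715), and with median-of-ratios scaling (0.99, adjusted p = 0.016) or by DESeq2 (0.98, adjusted p = 0.00466) the change was just under the 2-fold limit. *Plau* rose by 1.33 after FT (adjusted p = 0.00109), and its change after HS was 0.95 (adjusted p = 0.0135), under the 2-fold limit.

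Few genes were DE between 1 and 2 weeks, and *Mmp12* was among those that changed most. After FT 12 genes were DE (0.0714% of all genes), and *Mmp12* was 1 of the 8 that rose, by 2.05 ± 0.32 on the log2 scale (adjusted p = 0.00865). The others that rose were *Postn*, *Il1rn*, *Itgax*, *Flt1*, *Tubb6*, *AI504432* and *Tnfsf13b*, and *Folr2*, *Gpx3*, *Wfdc17* and *Pde2a* fell. The call of *Mmp12* was lost without FT 2 weeks replicate 2 or 3, with nearly the same change (2.07, adjusted p = 0.0575, and 2.05, adjusted p = 0.0648). After HS, with 2 libraries at 1 week, 2 genes were DE (0.0119%; *Postn* and *Serpinb7*) and none was among the 10. There *Mmp12* had a log2 change of 1.88 ± 0.36 (adjusted p = 0.114), the 3rd highest of all genes, and it was DE by the likelihood ratio test of edgeR (adjusted p = 0.00332), by DESeq2 (adjusted p = 0.000988) and with only these 2 groups fitted (adjusted p = 0.0345). *Plau* and *Plaur* had log2 changes of 1.08 (adjusted p = 0.143) and 1.23 (adjusted p = 0.0872) from 1 to 2 weeks after FT, and of 0.40 and 0.28 after HS.

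A list of 45 other genes of the same protease systems was examined against NI. It held 15 further metalloproteinases, 5 regulators of metalloproteinases, 11 genes of plasminogen activation, 5 chains of integrins known to associate with uPAR and 9 ADAM and ADAMTS proteases. At 72 h 8 were DE after HS (6 higher, 2 lower; 17.8%, beside 13.4% of all genes) and 7 after FT (6 higher, 1 lower; 15.6%, beside 12.2%), which lay near the share of all genes. At 1 week 3 were DE after HS (6.67%, beside 2.18% of all genes) and 4 after FT (8.89%, beside 4.05%), and at 2 weeks 4 after each injury (8.89%, beside 3.23% after HS and 4.88% after FT). Over the 6 comparisons 11 of the 45 (24.4%) were DE at least once, beside 18.2% of all genes. The median log2 fold change of the list lay between -0.16 and 0.17 over the 6 comparisons, where that of all genes lay between -0.11 and 0.02. The 5 integrin chains were DE in none.

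Among the genes of plasminogen activation, *Anxa2* encodes annexin A2, which gathers plasminogen and its activator on the cell surface. It had a mean of 14.0 CPM in NI and 198 and 209 CPM at 72 h after HS and FT (log2 fold changes 3.75 and 3.83, standard error 0.21 each, adjusted p 6.13e-11 and 4.39e-11). It was still DE at 1 week (2.13 and 2.38) and at 2 weeks (2.73 and 2.81). *S100a10*, the partner of annexin A2, had 14.0 CPM in NI, 22.3 and 26.5 CPM at 72 h (not DE), and was DE lower at 2 weeks after FT (-1.17 ± 0.35, adjusted p = 0.0437). *Plgrkt*, a plasminogen receptor, was DE higher at 72 h after both injuries (1.12 and 1.03, adjusted p 0.000182 and 0.000476). *Eno1*, whose product also binds plasminogen, was DE at 72 h (1.48 and 1.16) from 2.03 CPM in NI, but its reads are uncertain, since near-identical copies of this gene exist. *Plg* itself had group means of 0.329 to 1.03 CPM. The tissue-type activator *Plat* had 8.32 ± 3.38 CPM (SD, n = 3) in NI and means of 3.19 to 9.44 CPM after injury, and was not DE against NI.

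Among the other proteases *Adam8*, which encodes a membrane-anchored protease of myeloid cells, was DE higher in all 6 comparisons. It had 5.75 CPM in NI, 42.5 and 58.9 CPM at 72 h after HS and FT, 25.8 and 33.4 CPM at 1 week and 51.4 and 60.4 CPM at 2 weeks, with log2 fold changes of 2.08 to 3.29. *Adam9* (1.24 and 1.55) and *Mmp19* (1.19 and 1.80) were DE higher at 72 h only. *Mmp25*, which encodes a metalloproteinase anchored to the leukocyte membrane, was DE higher at 2 weeks after HS (1.49 ± 0.41, adjusted p = 0.0342), from 1.19 to 4.28 CPM. Its change was similar but not DE at 1 week after HS (1.50, adjusted p = 0.0904). The same held after FT at 1 week (1.32, adjusted p = 0.0529) and 2 weeks (1.28, adjusted p = 0.0561). *Mmp15* (2.84 CPM in NI) was DE lower at 72 h and 2 weeks after HS and at 1 week after FT (-1.31 to -1.60), and *Mmp23* (4.14 CPM in NI) at 72 h and 1 week after both injuries (-1.44 to -1.90). *Timp4*, the remaining inhibitor of the family, had 7.95 CPM in NI and was DE lower at 2 weeks after FT (1.52 CPM, -2.11 ± 0.58, adjusted p = 0.023). Its change was -2.10 at 1 week after HS, -1.57 at 1 week after FT and -1.55 at 2 weeks after HS. These were not DE (adjusted p 0.0941, 0.12 and 0.153). The lower astrocyte markers given above stood beside these *Timp4* values, and their part in them was not tested.

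**Figure D5:**
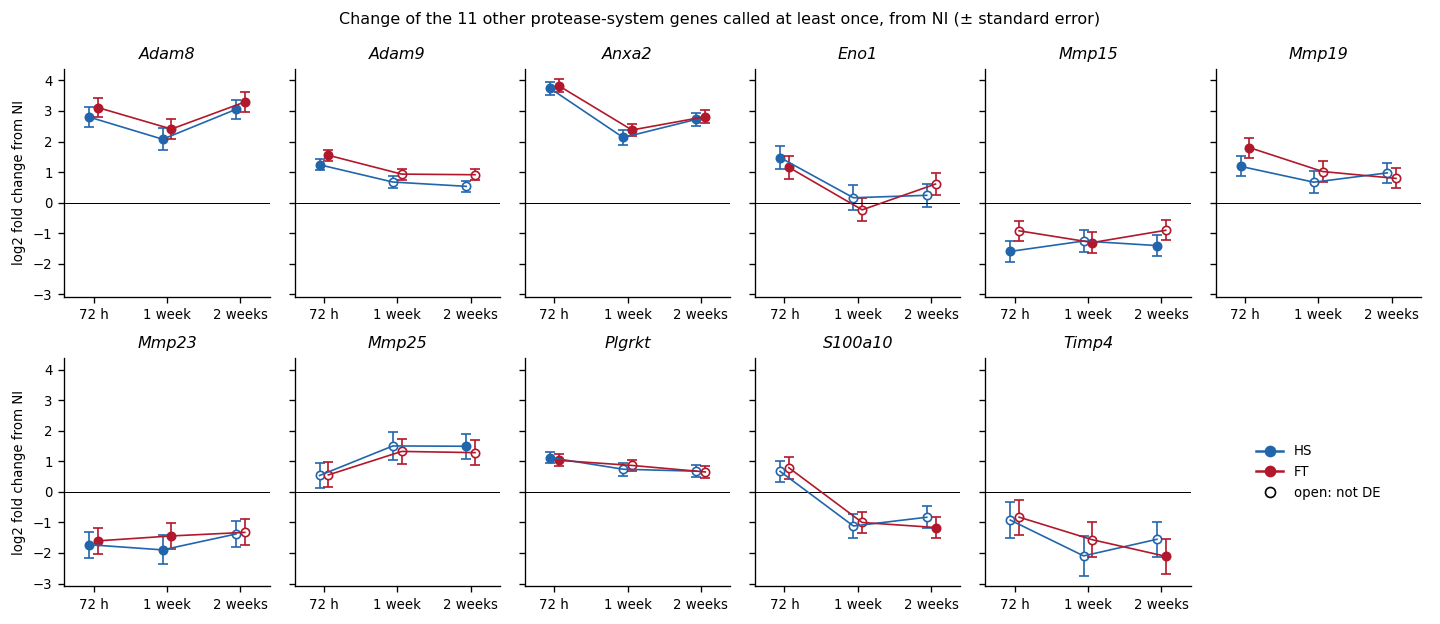
Log2 fold change from NI (y axis, ± standard error) at 72 h, 1 and 2 weeks (x axis) after HS (blue) and FT (red) for the 11 listed genes that were DE at least once. Filled points are DE. *Adam8* and *Anxa2* are filled in all 6 comparisons, with log2 fold changes of 2.08 to 3.83.

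Over the 20 libraries the log2 levels of *Mmp12*, *Plau* and *Plaur* varied together, with Pearson's r of 0.92 for *Mmp12* and *Plau*, 0.90 for *Plau* and *Plaur* and 0.89 for *Mmp12* and *Plaur*. *Mmp14* had r of 0.76 to 0.82 with these 3. *Timp3* had r of -0.56 to -0.62 with *Mmp12*, *Plau* and *Plaur*, and *Timp1* had -0.08 to -0.33. All such values hold the differences between the 7 groups and are given as a description. Among 14051 genes with a mean of at least 1 CPM, the gene most like *Mmp12* was *Itgax* (r = 0.93), followed by *Plau*. Most like *Plaur* were *Fgr* (0.96) and *Klrb1b* (0.96), most like *Plau* was *Olr1* (0.93), and most like *Timp2* were *Plbd2* (0.91) and *Abhd12* (0.89). *Timp1* was most like *Ckap2* (0.93) and *Cdc25c* (0.92), both genes of cell division, and *Timp3* most like *Atp6v0e2* (0.91) and *Slc25a18* (0.90). *Mmp14* was most like *Pwwp2b* (0.83), *Mmp2* like *Zdhhc4* (0.84) and *B230120H23Rik* (0.80), *Mmp8* like *Mrps26* (0.76) and *Slpi* (0.75), and *Mmp9* like *Map4k2* (0.75) and *Dnmbp* (0.73).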

How the data were processed

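RNA of sorted microglia (RNeasy with DNase, SMARTer Ultra Low and Nextera libraries, polyadenylated fraction, HiSeq) was processed by the authors. Adapter reads were removed with FASTX-Toolkit, reads were mapped with TopHat 2.0.9 to mm10 and counted with HTSeq 0.5.4p3, low genes were removed, and counts were normalized with edgeR 3.3.6 (versions per the labels). The signal deposited by the authors is this normalized read count, and its unit is not stated. It was taken as CPM of the library size times its edgeR factor. The columns total 777426 to 830481 CPM (NI) and 878070 to 1202190 CPM (injured). All 336200 values were whole multiples of what 1 read is worth (100%, within 0.001 of a read), so whole reads were recovered. The upper limit given for a library with no read covers counting error only. The 95% intervals of FT against HS come from the spread between libraries in the limma fit.

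Groups were taken from the sample titles. The main fit was limma 3.58.1 (R 4.3.3) with an intensity trend on log2(CPM + 0.5), 1 mean per group and all 20 libraries, and fold changes are on this scale, which understates the change of low genes. The limits for DE genes were 0.05 for the p adjusted by Benjamini-Hochberg across the whole table and 2-fold for the change. Alternatives were 0.1 or 1 CPM added, a filter of at least 1 CPM in at least 2 libraries, fits of just 2 groups, scaling by median of ratios, by quantiles or to 1 column total, no fold limit, a replicate block, edgeR 4.0.16 and DESeq2 1.42.0 on whole reads, and leaving out each library. The fit was tested on simulated data. Lengths were unions of exons in GENCODE vM21.

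The 10 genes and all lists were chosen with earlier results of these data known. Named are the 10 genes, listed protease genes that were DE against NI at least once, the 2 genes most correlated with each of the 10, and markers as lists; *S100a8*, *Ngp*, *Csf3r*, *Plg* and *Plat* were named after their values were seen. In the neutrophil list, *Ly6g* was not analysed here, nor were *Mmp1a*, *Mmp7* and *Mmp10*. Same-numbered libraries deviated together (every correlation over 0.1, with 3 pairs) only between FT and HS at 72 h (0.155 to 0.313), where the block changed no call among the 10 genes.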

Additional observations from a re-analysis of the deposited data

How the results depend on the processing

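Of the 29 changes of the 10 genes that were DE, none changed direction under any alternative, and 21 were DE under all of them. The other 8 lost the call with a library left out, and 5 of these also under another alternative. Of 121 changes that were not DE, 22 were DE under at least 1 alternative.

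The number of the 10 genes that were DE moved by over 1.5 times as follows. With no fold limit it was 5 at 72 h after FT and 5 at 2 weeks after FT, and with columns scaled to 1 total it was 5 at 2 weeks after FT (3 in the main fit in each case). With 0.1 CPM added it was 0 from 72 h to 1 week after HS (1 in the main fit). From 1 to 2 weeks after HS it was 1 (0 in the main fit), and from 72 h to 1 week after FT 2 (1 in the main fit), with only the 2 groups compared, by the edgeR likelihood ratio test and by DESeq2. From 1 to 2 weeks after FT it was 3 (1 in the main fit) by the edgeR likelihood ratio test and by DESeq2. With libraries left out it ranged from 2 to 4 at 72 h after HS against NI (2 without HS 72 h replicate 2), 1 to 3 at 1 week after HS (1 without HS 1 week replicate 1), 0 to 1 from 72 h to 1 week after HS, and 0 to 1 from 1 to 2 weeks after FT. Except where the construction shows it (no fold limit, fewer libraries), the cause was not tested.

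The number of the 45 listed genes DE against NI at 1 week after HS was 7 with only the 2 groups compared, 5 with quantile scaling, 6 by the edgeR likelihood ratio test, 5 by DESeq2 and 1 to 2 with a library left out (3 in the main fit). At 72 h after FT it was 12 with columns scaled to 1 total and 13 with no fold limit (7 in the main fit). At 1 week after FT it was 7 with only the 2 groups, with columns scaled to 1 total and by the edgeR quasi-likelihood test, 8 by the likelihood ratio test and by DESeq2, and 2 to 8 with a library left out (8 without FT 1 week replicate 1; 4 in the main fit). At 2 weeks it was 2 to 4 after HS with a library left out, and 7 after FT with columns scaled to 1 total or by the likelihood ratio test and 2 to 5 with a library left out (4 in the main fit). The lowest of these, 2, came without NI replicate 2, and also without NI replicate 3 at 2 weeks after HS and at 1 week after FT, without HS 2 weeks replicate 2 and without FT 1 week replicate 2.

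Scaling columns to 1 total moved the median over all genes of the log2 change from NI to between -0.17 (HS 1 week) and -0.52 (HS 72 h), and only 16.2% of DE genes at 72 h after HS and 18.5% after FT were then higher (67.8% and 66.6% in the main fit). At 1 and 2 weeks 53.3% and 36.0% were then higher after HS (77.9% and 75.3% in the main fit), and 26.0% and 25.9% after FT (70.5% and 72.2%). From 72 h to 1 and 2 weeks after HS 72.8% and 51.1% were then higher (32.4% and 28.9% in the main fit), and with quantile scaling 65.5% at 1 week after HS against NI. With columns scaled to 1 total *Mmp12* at 72 h after HS (0.76, adjusted p = 0.0549), *Plau* at 1 week after FT (0.71, adjusted p = 0.0673) and *Timp1* from 72 h to 1 week after HS lost their calls, and *Timp3* at 1 and 2 weeks after FT was DE lower (-1.58 each). The replicate block moved the count of the 10 genes only at 2 weeks after FT, to 4, where *Mmp9* was then DE (-1.68, adjusted p = 0.0411). Lengths taken from the longest transcript in place of the union of exons gave 0.98 CPM per kb in NI for *Mmp12*, 6.17 for *Mmp14*, 59.1 for *Timp2*, 3.02 for *Timp3* and 9.33 for *Plaur*, and *Timp2* and *Plaur* again had the highest levels in all 7 groups, while *Mmp12* ranked 8 in NI. At 1 read worth up to 0.292 CPM, *Timp1*, *Mmp8* and *Mmp9* rest on few reads in most libraries.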
